A study of Gallus gallus with 16 samples.

Results

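The collagens, laminins and matrix genes of the chicken gonad are the genes whose symbol in the deposited table named a collagen chain, a laminin chain, a matrix metalloproteinase (MMP) or a tissue inhibitor of metalloproteinases (TIMP), together with 15 named matrix genes such as fibronectin and elastin. The rule found 81 of 14074 genes under 79 symbols: 38 collagen, 12 laminin, 13 MMP and 3 TIMP genes and the 15 named ones. COL9A3 and LAMC1 were each held by 2 genes. No measured value entered the rule. COL1A1, the partner chain of COL1A2 in collagen I, was not analysed here.

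The extracellular matrix of a gonad has an interstitial part and a basement membrane part. Fibrillar collagens, elastin and fibronectin form the interstitial scaffold of the stroma, and small leucine-rich proteoglycans bind to its fibrils. Collagen IV and laminin networks, linked by nidogen, form the basement membranes that lie around the testicular cords, the ovarian epithelium and blood vessels, and MMPs cut matrix proteins while TIMPs inhibit them. In chicken the left female gonad becomes the ovary while the right one regresses, and both male gonads become testes.

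The RNA came from gonads of chicken (Gallus gallus) embryos on day 19 of incubation and was measured by SuperSAGE. This assay counts 1 short tag per transcript at its 3'-most NlaIII site, so a level does not scale with transcript length. The groups were females and males given the organotin tributyltin (10 pg Sn per g BW), sesame oil alone, the synthetic androgen methyltestosterone (30 pg per g BW) or nothing, where BW is body weight. The labels name no strain, no vehicle for either agent and no day of dosing. The 16 libraries in the labels, 1 per sex, side and substance and each from 10 pooled individuals, were joined over left and right in the table, which left 1 value column per sex and substance, 4 per sex. Levels are in RPM, the tags of a gene scaled to a common total per column, and where 4 levels of a sex are listed they are those after tributyltin, after oil, after methyltestosterone and untreated, in that order.

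The columns held between 314810 tags (female, oil) and 6669049 tags (male, methyltestosterone), so that 1 tag was worth 3.18 RPM in the shallowest column and 0.150 RPM in the deepest. The oil and tributyltin columns were the 4 shallow ones, with at most 508095 tags, and the untreated and methyltestosterone columns the 4 deep ones, with at least 1953798, so depth and these sets of columns cannot be told apart. The limit that a count of 0 allows, 3 tags, lay between 5.90 and 9.53 RPM in the shallow columns. The summed level of 4 steroid cell genes was 9557 to 13030 RPM over the columns, most of it from CYP17A1 alone, at 7917 to 12122 RPM. AMH, a Sertoli cell hormone, stood at 977, 1242, 6774 and 1486 RPM in females, against 6912 to 10834 RPM in males. The methyltestosterone female column thus lay close to the lowest male column. In the limma test by sex given below, 5 of 7 Sertoli cell markers were called lower in females, AMH among them, and none higher. Over all tested genes 2.28% were called lower and 3.67% higher. PTGDS, another of the 7, was not called. It stood at 278 RPM in untreated females and 26.1 RPM in untreated males. After methyltestosterone PTGDS stood at 97.95 RPM in females and 20.84 RPM in males. The sexes were close after oil, at 22.24 RPM in females and 26.39 RPM in males, and after tributyltin, at 28.29 and 31.49 RPM. Genes of neighbouring tissue were present as well and were higher in females: summed adrenal markers lay at 416 to 1184 RPM in females, against 51.2 to 382 RPM in males, and summed mesonephros and kidney markers at 378 to 1205 RPM in females, against 22.3 to 124 RPM in males. In pooled bulk tissue, fewer cells of a type and less RNA per cell cannot be told apart.

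Matrix genes made up 1.62% to 2.61% of all tags. Collagens summed to 0.873%, 0.749%, 1.06% and 1.19% of the tags in females, against 0.626%, 0.688%, 0.876% and 0.797% in males, higher in females under each substance. Laminins ran the other way, with 0.200%, 0.204%, 0.263% and 0.216% in females and 0.254%, 0.261%, 0.285% and 0.311% in males. These sums can rest on a single abundant gene. After oil collagens summed to 7490 RPM in females and 6880 RPM in males, of which COL1A2 gave 1369 and 698 RPM. After tributyltin laminins summed to 1998 RPM in females and 2545 RPM in males, of which LAMB1 gave 1232 and 1791 RPM. The fibrillar chains alone summed to 3110, 2719, 2173 and 4354 RPM in females, against 1826, 1748, 1486 and 2435 RPM in males. Levels were unevenly spread: 13 genes reached 1000 RPM in a column and 31 reached 100 RPM, while 30 stayed under 20 RPM in every column. A tag was found in all 8 columns for 48 genes, while TIMP4 had none in any column.

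**Figure D1:**
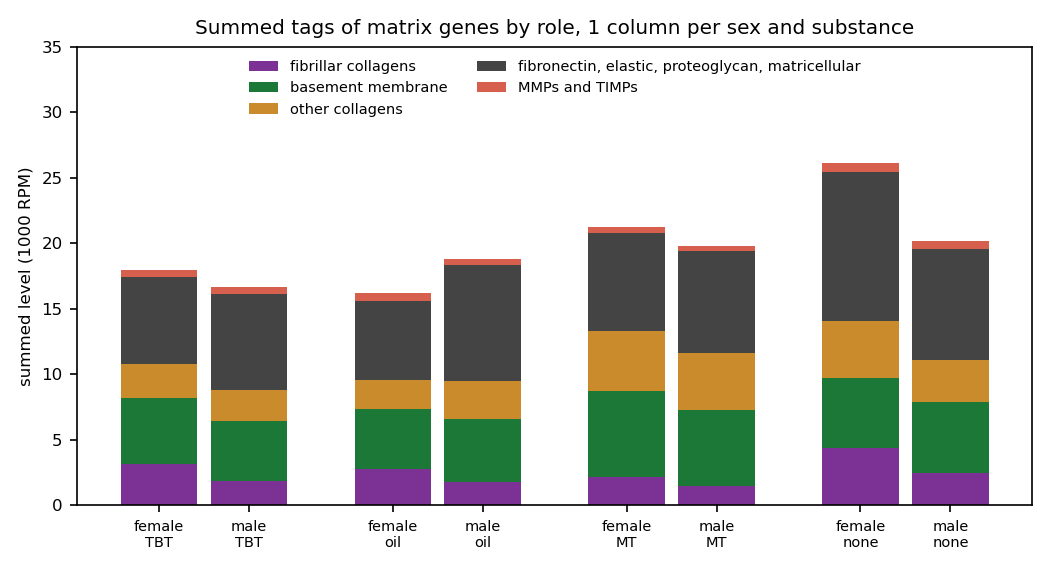
Summed level of the 81 matrix genes in units of 1000 RPM (y axis, from 0) in each of the 8 columns (x axis: female and male after tributyltin, TBT, oil, methyltestosterone, MT, and no substance, none), stacked by role. The purple fibrillar collagen segment is taller in females than in males under every substance, and the untreated female column has the tallest bar, at 26144 RPM in all.

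The first comparison asked which matrix genes differed between female and male gonads over the 4 substances. Elastin, matrix Gla protein, the fibrillar chains COL1A2 and COL3A1, the collagen IV chains COL4A2 and COL4A5 and fibronectin were higher in females, and the collagen IX chains COL9A2 and COL9A3 (but not COL9A1), the laminin chains LAMA1 and LAMA4, SPARC, osteoglycin and MMP11 were higher in males. Of the 81 genes, 67 reached 1 RPM in at least 4 columns and were tested with limma on log2(RPM + 1), with substance as a second term and adjustment over all 9280 genes that passed this filter. A gene was called at an adjusted p under 0.05. In females 7 of the 67 (10.45%) were higher and 7 (10.45%) were lower, where 3.67% of all tested genes were called higher and 2.28% lower. One of the 7 lower ones, MMP11, had no tag in any female column and passed the filter through the male columns alone, so it had to differ, and 6 others were lower. The median difference was 0.10 on the log2 scale over the 67 genes and 0.06 over all genes tested. Each of the 14 called genes had the same direction in 4 of 4 substances.

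The groups were also compared by overlap. In 3 genes (COL4A1, COL4A2 and MGP) all 4 female columns lay above all 4 male columns, 4.48% of the 67, and 5.27% of all tested genes did so. In 8 genes (COL4A4, COL9A2, COL9A3, LAMA1, LAMA4, LAMC3, MMP11 and SPARC) all female columns lay below all male columns, 11.9% of the 67, and 3.53% of all tested genes did so. The filter fixed this for MMP11, so 7 remain without it, while the share over all tested genes still holds such genes.

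**Figure D2:**
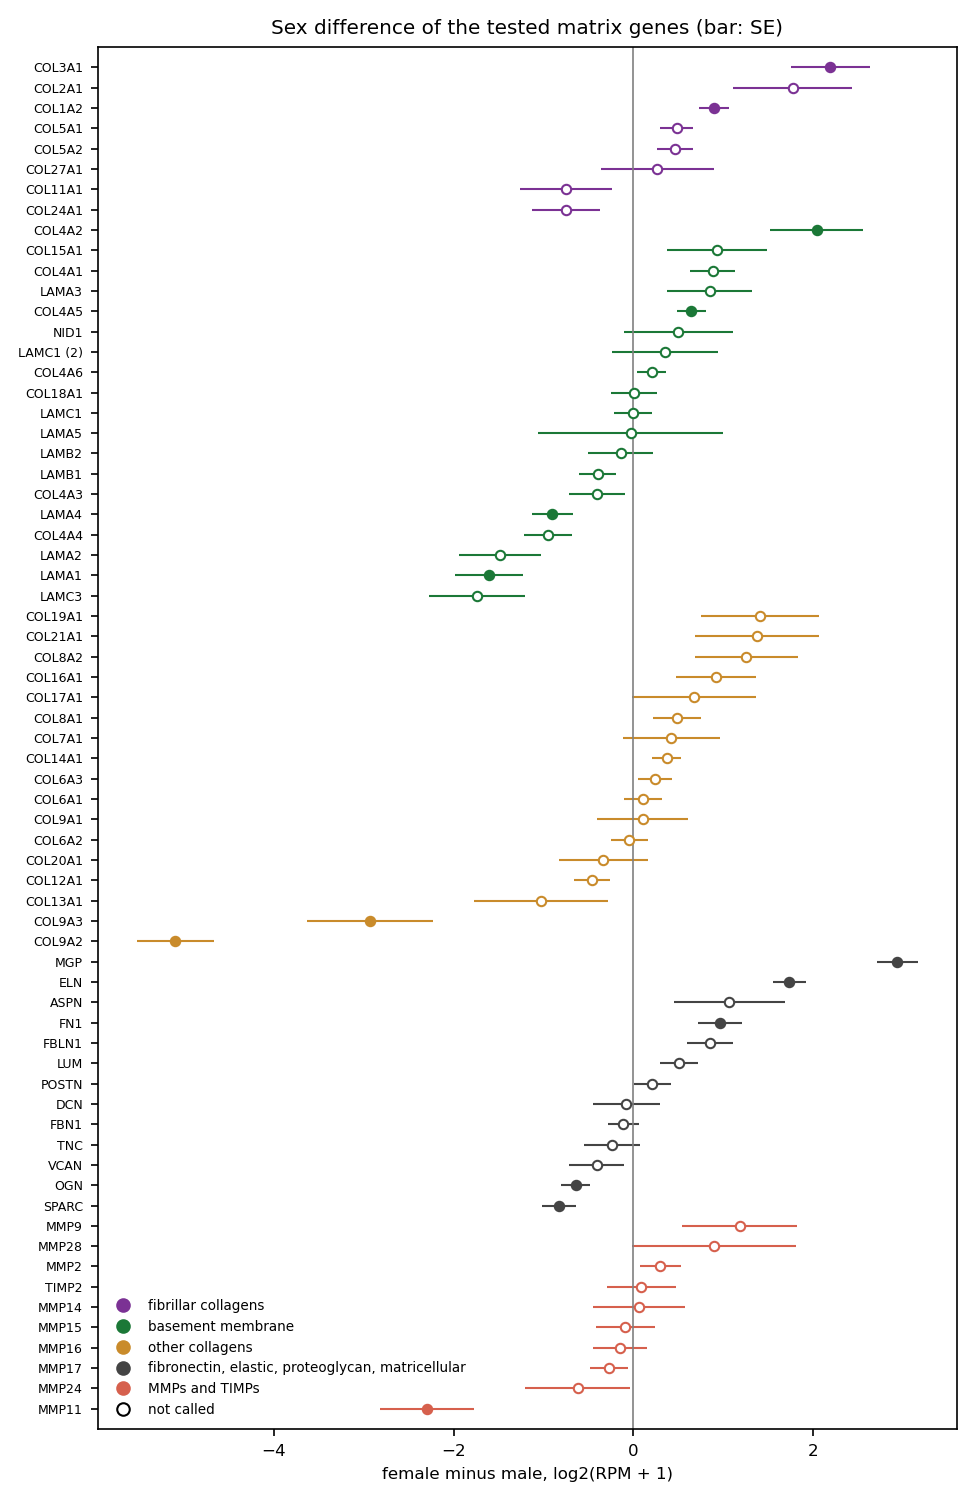
Difference between female and male columns on the log2(RPM + 1) scale (x axis, positive where females are higher) for the 67 tested matrix genes (y axis), coloured by role, with the standard error of the limma fit as a bar and filled points for called genes. LAMC1 (2) is the low-level second gene of that symbol. MGP at 2.94 and COL9A2 at -5.10 lie at the ends, and the basement membrane genes fall on both sides of 0.

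Among the fibrillar collagens 2 of 8 were called, both higher in females, where 3.67% of all tested genes were called higher and 2.28% lower. COL1A2 (ENSGALG00000009641, chromosome 2), the second chain of collagen I, stood at 1541, 1369, 1459.8 and 3381 RPM in females, against 726, 698, 943 and 1793 RPM in males. The untreated column was the highest of each sex, and the female column was 1.55 to 2.12 times the male column of the same substance. The difference was 0.90 (SE 0.17, adjusted p = 0.0115). COL3A1 (ENSGALG00000002552, chromosome 7), the chain of collagen III of soft stroma and vessel walls, was far less abundant, at 28.3, 85.8, 58.6 and 87.3 RPM in females, against 5.90, 6.09, 31.3 and 18.4 RPM in males. The tributyltin female column lay just below the methyltestosterone male column, so the sexes overlapped. The male levels after tributyltin and after oil rested on 3 tags each. The difference was 2.19 (SE 0.44, adjusted p = 0.0155). COL5A1 and COL5A2, chains of collagen V that co-assembles with collagen I, differed by 0.48 and 0.46 and did not pass the test (adjusted p = 0.18 and 0.25). COL5A2 stood at 401, 426, 335 and 420.1 RPM in females, against 372, 195, 286 and 319 RPM in males. COL2A1, the fibrillar chain of cartilage, reached at most 12.7 RPM, and COL11A1, COL24A1 and COL27A1 at most 2.05, 45.3 and 12.7 RPM.

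Elastin (ELN, ENSGALG00000001071, chromosome 19), the core protein of elastic fibres, stood at 1121, 718, 1390.3 and 3529 RPM in females, against 301, 284, 483 and 769.8 RPM in males. Each female column was above the male column of the same substance, the untreated female column held the highest level, and the difference was 1.74 (SE 0.19, adjusted p = 0.000972). MGP (ENSGALG00000011740, chromosome 1), matrix Gla protein, a small secreted protein known as an inhibitor of calcification, stood at 589, 302, 783 and 1071 RPM in females, against 128, 36.5, 103 and 86.0 RPM in males. The lowest female column lay above the highest male column, and the difference was 2.94 (SE 0.23, adjusted p = 0.000202). FN1 (ENSGALG00000003578, chromosome 7), fibronectin, which links integrins to collagen, stood at 247, 168, 474 and 483 RPM in females, against 134, 160.4, 184 and 163 RPM in males, a difference of 0.97 (SE 0.24, adjusted p = 0.0449). The sexes were close after oil and stood apart untreated and after methyltestosterone. FBN1, fibrillin of the microfibrils around elastin, stood at 386, 321, 430.5 and 456 RPM in females, against 362, 441, 484 and 434 RPM in males, with no call (adjusted p = 0.781). FBLN1, fibulin 1, differed by 0.85 (adjusted p = 0.0912).

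SPARC (ENSGALG00000004184, chromosome 13), a collagen-binding matricellular glycoprotein, was the most abundant matrix gene in every column but the untreated female one, where ELN was. It stood at 2623, 2909.7, 3074 and 2934 RPM in females, against 4609, 6433, 4769.5 and 4832 RPM in males. The highest female column lay below the lowest male column, and the difference was -0.83 (SE 0.19, adjusted p = 0.03). All 81 genes summed to 1.80%, 1.62%, 2.12% and 2.61% of tags in females, against 1.67%, 1.88%, 1.98% and 2.02% in males. That sum was higher in males after oil and higher in females otherwise. Without SPARC, the sum of the other 80 genes was higher in females under each substance. It was 1.54%, 1.33%, 1.82% and 2.32% of tags in females, against 1.20%, 1.24%, 1.50% and 1.54% in males. No gene higher in females was left out in the same way. After oil this sum was close between the sexes, at 13300 RPM in females and 12403 RPM in males. There COL1A2 had 1369 RPM in females and 698 RPM in males, and ELN 718 and 284 RPM, so this sum rests on few genes. OGN (ENSGALG00000026736, chromosome 12), osteoglycin, a small leucine-rich proteoglycan, stood at 291, 257, 611 and 733 RPM in females, against 499.9, 420.2, 922 and 1023 RPM in males, a difference of -0.64 (SE 0.16, adjusted p = 0.044). The other proteoglycans of this family did not pass the test. LUM, lumican, which binds collagen fibrils, stood at 808, 609.9, 346 and 1133 RPM in females, against 697, 522, 282 and 456 RPM in males (adjusted p = 0.225), DCN, decorin, at 20.7 to 63.0 RPM over all columns and ASPN, asporin, at 1.97 to 53.4 RPM. POSTN, TNC and VCAN, matricellular proteins and a large proteoglycan, stood at 140 to 430 RPM, 63.4 to 172 RPM and 27.6 to 89.3 RPM, with differences of 0.21, -0.23 and -0.41 and no call. VCAN was the only one of the 81 genes on the Z chromosome, of which males carry a pair and females a single copy.

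Of the 19 tested basement membrane genes 2 were higher and 2 lower in females, where 3.67% of all tested genes were called higher and 2.28% lower. COL4A1 and COL4A2, the chains of the collagen IV network found in nearly all basement membranes, stood at very different levels. COL4A1 had 404, 334, 387 and 607 RPM in females, against 268, 270.0, 241 and 157 RPM in males. All female columns lay above all male columns, but the difference of 0.88 (SE 0.25, adjusted p = 0.0772) did not pass the test. COL4A2 (ENSGALG00000016843, chromosome 1) had 18.0, 25.4, 22.5 and 28.2 RPM in females, against 3.94, 2.03, 11.2 and 5.63 RPM in males, again with no overlap, a difference of 2.04 (SE 0.51, adjusted p = 0.0449). The COL4A2 level rested on 2 tags in males after tributyltin and on 1 tag in males after oil. COL4A1 exceeded COL4A2 in tags by 13.1 to 22.4 times in female columns and by 21.4 to 133 times in male columns.

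COL4A5 (ENSGALG00000008141, chromosome 4) and COL4A6, chains of the collagen IV network of some epithelia, were the most abundant collagen IV chains. COL4A5 stood at 1589.5, 1149.9, 1955 and 1357 RPM in females, against 957, 786, 1200.2 and 904 RPM in males, a difference of 0.64 (SE 0.16, adjusted p = 0.044). Each female column was above the male column of the same substance, while the oil female column lay below the methyltestosterone male column. COL4A6 stood at 676, 679.8, 1029 and 729 RPM in females, against 529, 518, 1034 and 692 RPM in males, and its difference of 0.20 (SE 0.17, adjusted p = 0.575) did not pass the test. COL4A3 and COL4A4, whose network is best known from the kidney glomerulus in mammals, stood at 22.2 to 47.2 RPM and 28.6 to 86.6 RPM. COL4A4 had 43.7, 28.6, 33.9 and 42.1 RPM in females, against 86.6, 75.1, 70.0 and 57.3 RPM in males, with no overlap between the sexes and a difference of -0.95 (SE 0.26, adjusted p = 0.0674) that missed the threshold. COL18A1, the source of endostatin in mammals, stood at 319, 308, 422 and 378 RPM in females, against 189, 536, 300.5 and 508 RPM in males and was not called (adjusted p = 0.995). COL15A1 and NID1 reached at most 6.35 and 12.9 RPM.

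Laminins are trimers of an alpha, a beta and a gamma chain, and the alpha chain differs most between tissues. LAMA1 (ENSGALG00000014615, chromosome 2), an alpha chain of early embryonic basement membranes, stood at 7.72, 6.35, 21.2 and 20.4 RPM in females, against 31.5, 30.4, 40.5 and 60.9 RPM in males, a difference of -1.61 (SE 0.38, adjusted p = 0.0323). LAMA4 (ENSGALG00000015001, chromosome 3), an alpha chain known from vessels and muscle, stood at 195, 73.1, 148 and 157 RPM in females, against 258, 238, 278 and 242 RPM in males, a difference of -0.90 (SE 0.23, adjusted p = 0.0455). The female columns lay below the male columns in both genes. The LAMA1 level of females rested on 3 tags after tributyltin and on 2 tags after oil. LAMA2, an alpha chain known from muscle and nerve, stood at 28.3, 6.35, 49.5 and 17.8 RPM in females, against 92.5, 69.0, 88.2 and 20.5 RPM in males, with a difference of -1.49 (SE 0.46, adjusted p = 0.0969). LAMA3 differed by 0.85 (adjusted p = 0.388), and LAMA5 reached at most 20.3 RPM. LAMB1, the main beta chain, was the most abundant laminin, at 1232, 1537, 1467 and 877 RPM in females, against 1791, 1619.9, 1475 and 1719.7 RPM in males (adjusted p = 0.332). LAMB2, a beta chain known from mature basement membranes, stood at 20.6, 15.9, 35.5 and 60.8 RPM in females, against 29.5, 12.2, 23.7 and 121 RPM in males and was not called by sex (adjusted p = 0.882). The main LAMC1 gene (ENSGALG00000028773, chromosome 8), the common gamma chain, stood at 481, 388, 838 and 978 RPM in females, against 313, 595, 899 and 924 RPM in males, and the sexes differed by -0.00464. LAMC3, another gamma chain, had 2.57, 3.18, 4.75 and 3.04 RPM in females, against 11.8, 22.3, 16.6 and 7.17 RPM in males, without overlap, and its difference of -1.74 (SE 0.53, adjusted p = 0.0949) missed the threshold. The LAMC3 levels of females after tributyltin and after oil rested on 1 tag each. The second LAMC1 gene reached at most 3.94 RPM.

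COL9A2, a chain of collagen IX, which in cartilage sits on the surface of collagen II fibrils, gave the largest sex difference on the log2 scale among the 67 genes. COL9A2 (ENSGALG00000027526, chromosome 23) had 0, 0, 9.19 and 3.91 RPM in females, against 29.5, 48.7, 256 and 175 RPM in males. No tag was seen in female gonads after tributyltin or oil, where 3 tags would give 7.72 and 9.53 RPM, and the highest female column lay below the lowest male column. The difference was -5.10 (SE 0.43, adjusted p = 0.000252). COL9A3 (ENSGALG00000005628, chromosome 20) had 10.3, 0, 7.61 and 12.6 RPM in females, against 45.3, 67.0, 36.0 and 37.4 RPM in males, also without overlap, a difference of -2.93 (SE 0.70, adjusted p = 0.0349). COL9A1, the third chain, did not follow them: it stood at 15.4, 6.35, 6.66 and 47.8 RPM in females, against 25.6, 4.06, 11.7 and 18.9 RPM in males, with a difference of 0.10 (adjusted p = 0.941). The collagen II chain COL2A1 was 1.80 RPM or less in 3 male columns and 4.61 RPM in the untreated males. Of the 8 cartilage markers, ACAN, COMP, EPYC and CILP2 stayed under 3 RPM in every column. Of the other cartilage markers, LECT1 stood at 36.0 to 68.2 RPM in females and 17.7 to 26.4 RPM in males, CHAD reached 10.9 RPM, and MATN3 had 2.57, 3.18, 0.634 and 9.56 RPM in females, against 9.84, 8.12, 6.30 and 17.4 RPM in males. HAPLN1, a Z-linked link protein gene, stood at 43.7, 47.6, 40.6 and 39.5 RPM in females, against 207, 122, 137 and 140 RPM in males. It was called lower in females, by limma (-1.77, SE 0.23, adjusted p = 0.00179). The summed level of the 8 cartilage markers was 84.9 to 116 RPM in females, against 156 to 240 RPM in males, and HAPLN1 made up most of it in males. The part of these markers in the collagen IX difference was not tested.

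The beaded collagen VI and the fibril-associated collagens XII and XIV were abundant in both sexes and were not called by sex. COL6A1 stood at 694, 467, 1185 and 1346 RPM in females, against 632, 680.0, 1142 and 790.3 RPM in males. COL6A2 stood at 658, 677, 892 and 875 RPM in females, against 626, 1127, 792 and 703 RPM in males. COL6A3 stood at 316, 279.5, 561 and 736 RPM in females, against 299, 296, 490.2 and 429 RPM in males. The differences of the 3 chains were 0.10, -0.04 and 0.24. The tags of COL6A1 exceeded those of COL6A3 by 1.67 to 2.33 times over the 8 columns. COL14A1 stood at 602, 546, 1379 and 1009 RPM in females, against 482, 449, 1133 and 669 RPM in males, a difference of 0.37 (SE 0.16, adjusted p = 0.252). COL12A1 stood at 95.2, 57.2, 344 and 174 RPM in females, against 110.2, 109.6, 385 and 252 RPM in males, a difference of -0.46 (SE 0.20, adjusted p = 0.255). The network collagen COL8A1 reached 101 RPM, and the other tested chains of this group (COL7A1, COL8A2, COL13A1, COL16A1, COL17A1, COL19A1, COL20A1 and COL21A1) stayed at or under 73.2 RPM without a call.

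The matrix proteases were sparse. MMP2, the gelatinase with the highest level, stood at 255, 222, 137 and 443 RPM in females, against 250.0, 140.1, 181 and 236 RPM in males and was not called (adjusted p = 0.552). MMP15, a membrane-type MMP, MMP16 and MMP17 reached 259, 66.9 and 99.7 RPM and were not called by sex. MMP11 (ENSGALG00000005968, chromosome 15), stromelysin 3, had 0, 0, 0 and 0 RPM in females, against 1.97, 4.06, 3.75 and 7.17 RPM in males, where the male levels rested on 1 to 25 tags. Its fitted difference of -2.30 (SE 0.52, adjusted p = 0.0293) depends on the added 1 RPM and gives no fold. Of the inhibitors, TIMP2 alone was tested, and TIMP3 and TIMP4 had at most 1.97 RPM. MMP1, MMP7, MMP13 and MMP27, among them the interstitial collagenases MMP1 and MMP13, stayed at or under 3.18 RPM.

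**Figure D3:**
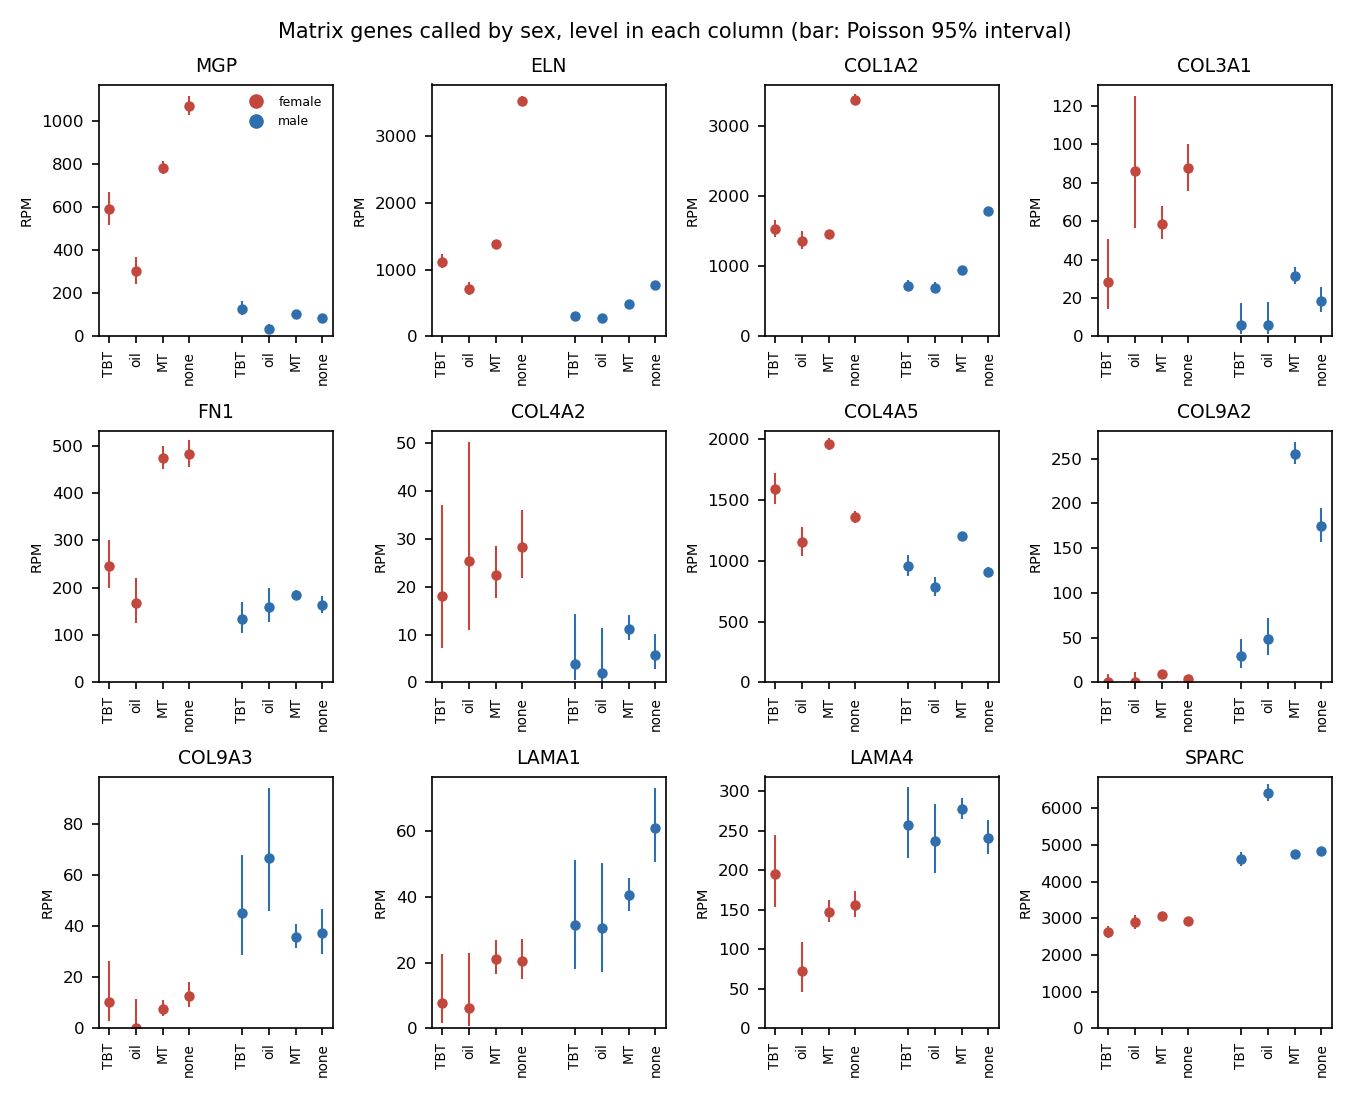
Level in RPM (y axis, from 0) of 12 matrix genes called by sex in each column (x axis: tributyltin, TBT, oil, methyltestosterone, MT, and none, females in red on the left and males in blue on the right), with exact Poisson 95% intervals of the tags. All 4 female columns stand above all male columns for MGP and COL4A2 and below them for COL9A2, COL9A3, LAMA1, LAMA4 and SPARC, while the other genes overlap between substances.

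Leaving out 1 column at a time ended most of these calls. MGP, ELN and COL9A2 were called in 8 of 8 such fits, with adjusted p up to 0.00528, 0.0192 and 0.00733. COL3A1 was called in 4 of the 8 fits, COL1A2 in 3, FN1 and COL9A3 in 2, LAMA1 in 1, and COL4A2, COL4A5, LAMA4, MMP11, OGN and SPARC in none, with adjusted p up to 0.247 for COL4A2 and 0.127 for SPARC. COL1A2 and COL3A1 lost the call without an untreated or a tributyltin column, COL1A2 also without the male oil column, and FN1 and COL9A3 kept it without an oil column alone. No direction turned in any of these fits. The direction was also the same within the oil and tributyltin columns and within the untreated and methyltestosterone columns, each fitted alone with 1 residual degree of freedom. MGP differed by 2.60 within the first set and 3.27 within the second, ELN by 1.61 and 1.86, COL9A2 by -5.28 and -4.91, COL3A1 by 2.85 and 1.53, COL9A3 by -4.06 and -1.80 and FN1 by 0.47 and 1.46. None of these genes was called within the first set (adjusted p of 0.373 or more).

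In the list of enzymes and chaperones of collagen maturation and cross-linking, 3 of 23 tested genes were higher in females, 1 was lower and 19 were not called, where 3.67% of all tested genes were called higher and 2.28% lower. The median difference was 0.28 (0.06 over all genes tested). TGM2, transglutaminase 2, which cross-links matrix proteins, stood at 1127, 734, 1214 and 1284 RPM in females, against 287, 333, 600.1 and 311 RPM in males (1.54, SE 0.21, adjusted p = 0.00231). The prolyl hydroxylase subunits went opposite ways. P4HA2 had 92.6, 108, 227 and 178 RPM in females, against 27.6, 6.09, 87.7 and 41.5 RPM in males, a difference of 2.27 (SE 0.38, adjusted p = 0.00644), and P4HA1 had 172, 267, 259.9 and 186 RPM in females, against 533, 374, 642 and 396 RPM in males, a difference of -1.12 (SE 0.21, adjusted p = 0.0101). ADAMTS2, which removes the amino end of procollagen, was higher in females by 1.16 (SE 0.26, adjusted p = 0.0260).

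Among genes of TGF beta signalling, a pathway that raises matrix gene expression in many tissues, 4 of 13 were called higher in females, or 3 of 12 without the uncertain SMAD2, and none lower, with a median difference of 0.68. Over all tested genes 3.67% were called higher and 2.28% lower. The ligand TGFB2 stood at 149, 111, 65.6 and 104 RPM in females, against 66.9, 52.8, 49.2 and 50.2 RPM in males (0.91, SE 0.23, adjusted p = 0.0454). CTGF, a matricellular target of the pathway, stood at 517, 203, 136 and 472 RPM in females, against 185, 112, 117 and 123 RPM in males (1.12, SE 0.26, adjusted p = 0.0332). LTBP1, which holds latent TGF beta in the matrix, stood at 69.4, 118, 48.2 and 10.9 RPM in females, against 9.84, 4.06, 16.5 and 1.53 RPM in males (2.74, SE 0.52, adjusted p = 0.0125). The gene listed as SMAD2 on the W chromosome was higher in females by 4.30 (SE 0.57, adjusted p = 0.00196), but it has a Z-linked copy, so its tags may be shared and the value is uncertain. Of 19 tested matrix receptors CD36 alone was called, higher in females by 1.44 (SE 0.31, adjusted p = 0.0230). None of the genes of these 3 lists was called after methyltestosterone or tributyltin.

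Markers of other tissue moved with the same sex contrast: 5 of 7 adrenal, 4 of 7 kidney, 4 of 5 red blood cell, 2 of 4 leukocyte, 2 of 2 liver and 1 of 7 endothelium markers tested were called higher in females. Over all tested genes 3.67% were called higher. Of 5 liver markers only 2, APOA1 and FGB, reached the level to be tested. The endothelium marker was EGFL7 (0.84, SE 0.20, adjusted p = 0.0314), and the summed endothelium markers stood at 165, 165, 382 and 315 RPM in females, against 94.5, 87.3, 201.5 and 176 RPM in males. None of 6 smooth muscle markers was called by sex, but their summed level was 1578 RPM in untreated females and 345 to 484 RPM in every other column. MYH11 alone stood at 871 RPM in untreated females and at 103 to 187 RPM elsewhere. The untreated female column also held the highest summed adrenal markers, at 1184 RPM, and the highest summed kidney markers, at 1205 RPM. Matrix genes with their highest level in it included ELN, COL1A2, LUM, FBLN1, MMP2, COL4A1, MGP, FN1, COL3A1 and COL6A1. The part of these tissues in the matrix differences was not tested. In the fits without a column, that of untreated females among them, the sex difference of MGP was 2.71 or more and that of ELN 1.58 or more. Such fits cannot separate the tissues, because summed adrenal and kidney markers were higher in females under each substance.

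Several matrix genes are neighbours in the genome, with 11 adjacent pairs in the RefSeq annotation of assembly GRCg7b, which was used for names and neighbours only. In 7 of these pairs both genes were tested, and in none were both called by sex. COL4A1 and COL4A2, which share a promoter region in mammals, differed by 0.88 and 2.04, COL4A5 and COL4A6 by 0.64 and 0.20, COL4A4 and COL4A3 by -0.95 and -0.41, and COL5A2 and COL3A1 by 0.46 and 2.19. The other 3 pairs were LUM and DCN at 0.51 and -0.08, COL6A1 and COL6A2, and COL9A1 and COL19A1 at 0.10 and 1.41.

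The second comparison set gonads given methyltestosterone against untreated ones, 2 columns each. No matrix gene was called by limma, where 0.226% of all tested genes were called higher and 0.119% lower. In this fit a response of 1 sex alone counts as spread, so the lack of a call does not show that there was none. Over all tested genes 9.21% had an unadjusted p under 0.05. Of the 67 tested matrix genes 5 were higher and 9 lower at that level. The smallest adjusted p was that of COL1A2, which stood after methyltestosterone at 1459.8 RPM in females and 943 RPM in males, and untreated at 3381 RPM in females and 1793 RPM in males, a difference of -1.07 (SE 0.24, adjusted p = 0.115). ELN stood at 1390.3 RPM in females and 483 RPM in males after methyltestosterone, and at 3529 RPM in females and 769.8 RPM in males untreated, a difference of -1.01 (SE 0.27, adjusted p = 0.185). LUM stood at 346 RPM in females and 282 RPM in males after methyltestosterone, and at 1133 RPM in females and 456 RPM in males untreated, a difference of -1.20 (SE 0.30, adjusted p = 0.164). In each of these 3 genes both sexes had the lower level after methyltestosterone, and the same held for MMP2, with a difference of -1.03 (SE 0.33, adjusted p = 0.289), and POSTN, with -0.85 (SE 0.29, adjusted p = 0.349). Fibril-associated chains had differences of either sign, none past the test: COL12A1 differed by 0.79 (SE 0.28, adjusted p = 0.373), COL14A1 by 0.60 (SE 0.23, adjusted p = 0.419), COL16A1 by 1.88 (SE 0.63, adjusted p = 0.333) and COL9A1 by -1.66 (SE 0.71, adjusted p = 0.508).

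Beside these values, MYL9, a smooth muscle marker, was called lower after methyltestosterone, at 54.8 RPM in females and 41.8 RPM in males, against 289 RPM in untreated females and 157 RPM in untreated males. It was the 1 of 6 smooth muscle markers called, where 0.226% of all tested genes were called higher and 0.119% lower. The summed level of the 6 was 345 RPM in females and 484 RPM in males after methyltestosterone, and 1578 RPM in females and 484 RPM in males untreated. The part of smooth muscle in the matrix values was not tested. With edgeR on the recovered tags of 7 columns (without the untreated female column) 1 matrix gene was higher, LAMA2, and 2 were lower, MMP15 and LAMB2, and DESeq2 called none. With a mean of at least 20 RPM as the filter, COL1A2 was called by limma (adjusted p = 0.0476).

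Within 1 sex each group was a single column, so there was no test, and a gene was described where it differed at least 4-fold with non-overlapping Poisson 95% intervals and reached 50 RPM. These intervals cover counting error only. In females COL16A1, a fibril-associated collagen, had 73.2 RPM after methyltestosterone (interval 64.1 to 83.3) and 12.2 RPM untreated (8.08 to 17.6), 6.02 times as much, and it was the single matrix gene past this rule among 34 with the level to be so. By this rule 1.38% of all such genes were higher and 1.51% lower in females. In males 3 of 36 passed. LAMA2 had 88.2 RPM after methyltestosterone (81.2 to 95.6) and 20.5 RPM untreated (14.6 to 27.9). LAMB2 had 23.7 RPM after methyltestosterone (20.1 to 27.7) and 121 RPM untreated (106 to 138). MMP15 had 55.6 RPM after methyltestosterone (50.1 to 61.6) and 259 RPM untreated (237 to 283). In males the rule found 0.704% of all such genes higher and 0.789% lower.

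The third comparison set gonads given tributyltin against those given oil. No matrix gene was called, and of all tested genes 0% were called higher and 0% lower. At an unadjusted p under 0.05 there were 6 higher and 1 lower of the 67 tested matrix genes. Of all tested genes 10.7% had such a p in either direction. Neither edgeR nor DESeq2 called a matrix gene, while over all genes edgeR called 4 and DESeq2 2 higher after tributyltin. MGP stood at 589 RPM in females and 128 RPM in males after tributyltin, and at 302 RPM in females and 36.5 RPM in males after oil, a difference of 1.37 (SE 0.32, adjusted p = 0.292). MMP15 stood at 12.9 RPM in females and 15.7 RPM in males after tributyltin, and at 54.0 RPM in females and 50.7 RPM in males after oil, a difference of -1.81 (SE 0.46, adjusted p = 0.292). LAMA4 differed by 0.76 (SE 0.32, adjusted p = 0.436), with 195 RPM in females and 258 RPM in males after tributyltin and 73.1 RPM in females and 238 RPM in males after oil. The other 4 with an unadjusted p under 0.05, NID1, COL8A2, COL9A1 and the second LAMC1 gene, rested on levels of at most 25.6 RPM in these columns.

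Within females MMP15 had 12.9 RPM after tributyltin (interval 4.18 to 30.0) and 54.0 RPM after oil (31.5 to 86.5), and it was the single one of 34 matrix genes past the 4-fold rule. The rule found 0.861% of such genes higher and 1.12% lower in females, and 0.912% higher and 0.668% lower in males, where none of 36 matrix genes passed. In these shallow columns a gene at 20 RPM rested on about 10 tags or fewer, and changes of such genes that stay within their intervals were not detectable at this depth.

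**Figure D4:**
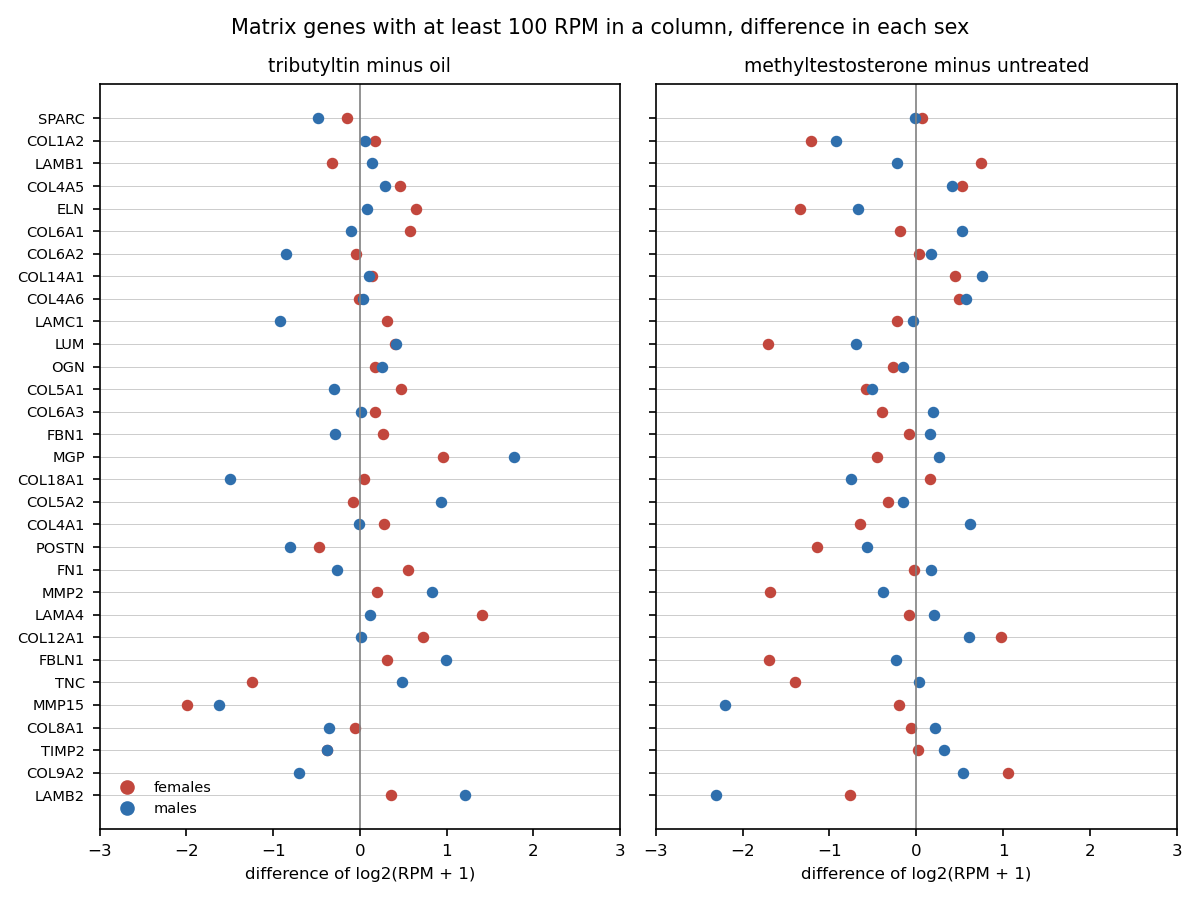
Difference of log2(RPM + 1) (x axis) between tributyltin and oil (left panel) and between methyltestosterone and untreated (right panel) in females (red) and males (blue), for the 31 matrix genes with at least 100 RPM in a column (y axis, ordered by mean level). COL1A2, ELN and LUM lie left of 0 in both sexes after methyltestosterone, and MMP15 lies left of 0 in both sexes in both panels. Each point is 1 column minus 1 column, without an error, and a gene at 0 in both columns has no point.

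The fourth comparison set gonads given oil against untreated ones. The oil columns belong to the shallow set and the untreated columns to the deep set, so oil and the set cannot be told apart. Of the 67 genes 2 were higher and 7 lower after oil (2.99% and 10.45%), where 2.77% of all tested genes were called higher and 3.59% lower. The median difference was -0.56 over the matrix genes and -0.28 over all genes tested.

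TIMP2 (ENSGALG00000027070, chromosome 18), an inhibitor of MMPs that also takes part in the activation of MMP2, stood at 181 RPM in females and 128 RPM in males after oil, and at 2.17 RPM in females and 2.56 RPM in males untreated. The tributyltin columns resembled the oil columns, with 139 RPM in females and 98.4 RPM in males, and the methyltestosterone columns the untreated ones, with 2.22 RPM in females and 3.45 RPM in males. The difference between oil and untreated was 5.51 (SE 0.54, adjusted p = 0.000827), the largest of the 67, and the call held in 16 of 16 alternatives. The untreated levels rested on 5 tags in each sex, and the oil levels on 57 tags in females and 63 in males. COL5A1 (ENSGALG00000002546, chromosome 17) divided the sets the same way. It stood at 1109, 800.5, 297 and 443 RPM in females, against 665, 820.1, 197 and 282 RPM in males, all 4 oil and tributyltin columns above all others, and differed by 1.20 (SE 0.26, adjusted p = 0.0251) between oil and untreated.

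The genes lower after oil were ELN at -1.86 (SE 0.27, adjusted p = 0.00457), OGN at -1.39 (SE 0.23, adjusted p = 0.00835), COL1A2 at -1.33 (SE 0.24, adjusted p = 0.0107), LAMB2 at -2.54 (SE 0.51, adjusted p = 0.0177), COL12A1 at -1.39 (SE 0.28, adjusted p = 0.019), MGP at -1.52 (SE 0.32, adjusted p = 0.0236) and MMP15 at -1.74 (SE 0.46, adjusted p = 0.0499). MMP15 stood at 12.9, 54.0, 106 and 122 RPM in females, against 15.7, 50.7, 55.6 and 259 RPM in males. OGN, COL12A1 and MMP15 had all 4 oil and tributyltin columns below all 4 untreated and methyltestosterone columns. COL14A1, COL4A6, COL6A1, COL6A3 and the main LAMC1 gene had the same split without a call. MMP9, MMP14 and COL7A1 had it too, but they had no tag in any shallow column and passed the filter through the deep columns alone. The split upward was shared by TIMP2, COL5A1, COL20A1 and COL27A1, of which COL27A1 passed the filter through the shallow columns alone. In all, 11 of the 67 lay below by set (16.4%) and 4 above (5.97%), where 12.5% of all tested genes lay below and 7.03% above. Without the 4 genes whose split the filter fixed, 8 lay below and 3 above, while the shares over all tested genes still hold such genes.

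**Figure D5:**
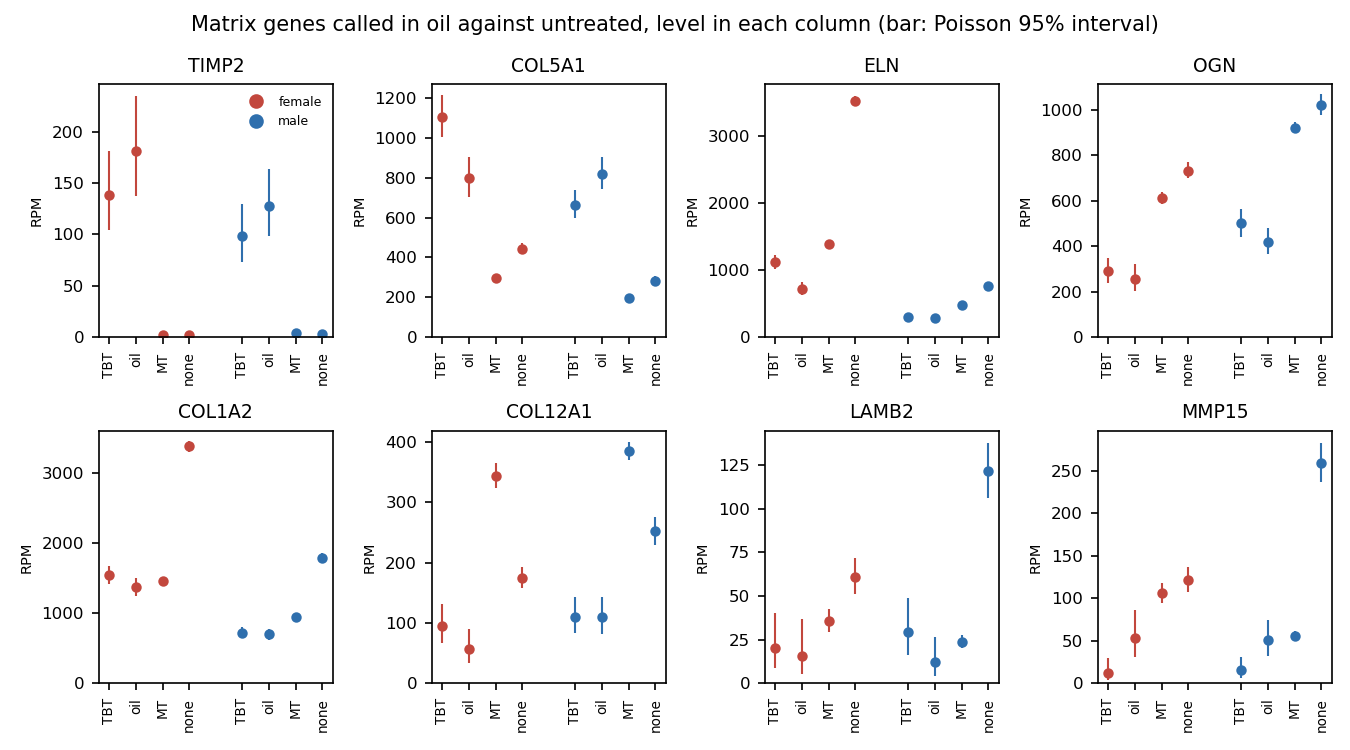
Level in RPM (y axis, from 0) of 8 of the 9 matrix genes called between oil and untreated columns (all but MGP), in each column (x axis: tributyltin, TBT, oil, methyltestosterone, MT, and none, females in red on the left and males in blue on the right), with exact Poisson 95% intervals. TIMP2 and COL5A1 are high after tributyltin and oil and low after methyltestosterone and untreated, and OGN and COL12A1 have the opposite order.

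Of the calls between oil and untreated, TIMP2 was kept in 8 of 8 fits without a column. ELN was lost without the untreated female column (adjusted p = 0.104), and OGN and LAMB2 were lost without either untreated column (adjusted p up to 0.157 and 0.288). COL1A2, COL5A1 and COL12A1 were kept in 5 of 8 fits, MGP in 4 and MMP15 in none (adjusted p up to 0.166, 0.221, 0.213, 0.372 and 0.442). ADAMTS2, the procollagen proteinase, was lower after oil as well, at -1.46 (SE 0.36, adjusted p = 0.0415). The summed smooth muscle markers stood at 432 RPM in females and 441 RPM in males after oil, and at 1578 RPM in females and 484 RPM in males untreated, and their part in these calls was not tested.

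The last comparison asked whether the sex difference of a matrix gene differed between the oil and tributyltin columns and the untreated and methyltestosterone columns, through an interaction term. No matrix gene was called, and of all tested genes 0.0108% were called higher and 0% lower. The smallest adjusted p of a matrix gene was 0.736, and edgeR and DESeq2 called no matrix gene. An unadjusted p under 0.05 was found for 5 of the 67 tested matrix genes and for 6.47% of all tested genes. FN1, the most abundant of the 5, had a difference of -0.98 (SE 0.37) between the sets, and the others were LAMA2, COL16A1, COL19A1 and MMP9.

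The 14 genes that did not reach 1 RPM in 4 columns included COL10A1, COL22A1, COL25A1, COL28A1, the second COL9A3 gene, LAMB4, FBLN5, MMP1, MMP7, MMP13, MMP27, TIMP3 and TIMP4. The highest level of any of the 14 in a column was 6.35 RPM, the worth of 2 tags in the shallowest column.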

How the data were processed

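The deposited table gives each gene's level as RPM, which the authors scaled to a common total per column, in 8 columns. A filler of 0.05 marks genes without a tag and was set to 0. Per the submitters' processing notes the aligner was Novoalign and the genome build galGal4. Versions are not given in the sources used here. How left and right libraries were joined is not stated, so sides were not compared.

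With the filler removed 100% of values were within 0.01 of a whole tag. Levels were transformed as log2(RPM + 1), and the 9280 genes that reached 1 RPM in 4 or more columns were fitted with limma 3.58.1 in R 4.3.3 (empirical Bayes with a mean trend, sex and substance as additive terms, 3 residual and 7.39 prior degrees of freedom). The interaction fit had 2 residual degrees of freedom. P-values were adjusted by Benjamini-Hochberg over all genes and measure only the spread between columns, each of them a pool. With 1 column per sex and substance, that spread is what the additive terms of sex and substance leave over. A response to a substance in 1 sex alone therefore counts as spread. Exact Poisson intervals at 95% and the limit of 3 tags cover counting error only, since tags carry no molecular identifiers.

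Genes were named where they were called in a comparison, reached 500 RPM in a column or passed the 4-fold rule within a sex. Of other lists at most 4 called genes were given in full. The genes and lists were chosen with earlier results of these data known. The design had foreseen limma on RPM.

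Other settings tried were a pseudocount of 0.5 or 5, dropping the filter or raising it to a mean of 20 RPM, scaling by median of ratios, no mean trend, each column left out, each set of columns alone, and edgeR 4.0.16 and DESeq2 1.42.0 on the recovered tags of 7 columns, without the untreated female column, whose filler kept its tags from passing a check for whole values. On those tags edgeR called 251 genes higher and 281 lower in females. With the filler removed the untreated female column held whole tags as well. The edgeR and DESeq2 counts thus differ from the main fit both in tool and in the columns used. The fit was tested on simulated data. No sequence is shown, as the references used here held none.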

Additional observations from a re-analysis of the deposited data

Results flagged for a closer look

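Among the 102 groups of 4 columns of a sex with levels high enough to be examined (at least 20 RPM in a column), 4 held a column that stood apart from the other 3 by Dixon's ratio, the gap to the nearest column over the whole range on the log2(RPM + 1) scale, beyond its 95% critical value. Chance gives about 1 such group in 20. COL4A3 in males after tributyltin, at 47.2 RPM, had a ratio of 0.934. It rested on 24 tags, and its Poisson interval of 30.3 to 70.3 RPM covers the other male columns, at 34.5 to 35.2 RPM. MMP28 in females after oil, with no tag against 16.1 to 20.6 RPM in the other female columns, had a ratio of 0.924. COL1A2 in untreated females, at 3381 RPM, had a ratio of 0.869, and this is the column with the highest summed smooth muscle, adrenal and kidney markers. SPARC in males after oil, at 6433 RPM, had a ratio of 0.859.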

How the results depend on the processing

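The counts of matrix genes called depended on the setting, and no direction of a called gene turned under any alternative. By sex, the main fit had 7 higher and 7 lower. The 7 higher became 4 with a pseudocount of 0.5, with median-of-ratios scaling and with DESeq2, and 3 with edgeR. Without a filter 2 were higher and 1 lower, and without a mean trend 2 and 2. The oil and tributyltin columns alone gave 0 higher and 0 lower, and the untreated and methyltestosterone columns alone gave 12 higher. Leaving out 1 column gave 2 to 5 higher and 1 to 3 lower. MGP, ELN and COL9A2 kept their call in 17 of 18 alternatives and lost it in the oil and tributyltin columns alone. COL9A2 was thus still called lower in each setting for which a higher count alone is given. For methyltestosterone against untreated, 0 and 0 became 1 higher and 2 lower with edgeR and 1 lower with a mean of at least 20 RPM. For oil against untreated, 2 higher and 7 lower became 1 and 3 without a filter and 1 and 1 without a mean trend. TIMP2 kept its higher call in 16 of 16 alternatives, edgeR and DESeq2 among them. edgeR and DESeq2 each gave 4 lower, and leaving out 1 column gave 1 to 2 higher and 0 to 12 lower, the most without the male oil column. In the interaction of sex and set, leaving out an oil or a tributyltin column, with 1 residual degree of freedom, gave 0 to 6 higher and 0 to 9 lower in place of 0 and 0. Some of these fits held fewer columns or genes, and the cause of the changes was not tested. Samples of the 2 sexes were matched by substance in the main fit, and no further paired analysis was possible because the columns carry no replicate number. Depth limited the 30 genes under 20 RPM, which rest on about 10 tags or fewer in the shallow columns.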
